A study of Mus musculus with 30 samples.

Results

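Zfp symbols name mouse genes for zinc finger proteins, and 147 of them form the gene family described here. A gene belongs to it when its symbol is Zfp followed by digits only and its mean count over the 24 bulk RNA-seq libraries was at least 500. Of 24063 genes in the bulk table, 333 had such a symbol, 147 reached the level and 186 did not. The members were thus chosen by their symbol and by their mean count over all libraries. No contrast between groups entered this rule, but earlier results of these data were known when the family was chosen. Zfp472 with a mean count of 506.8 and Zfp316 with 513.7 were just inside it, and Zfp408 with 498.1 and Zfp948 with 496.6 were just outside.

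The libraries came from mouse bone marrow cells with and without Mettl3, the catalytic subunit of the complex that writes the RNA modification m6A. WT mice were Mettl3 fl/fl without Cre, and Mettl3KO mice were Mx1-Cre; Mettl3 fl/fl. Both genotypes carried the floxed alleles and received pIpC, a double-stranded RNA that switches on Mx1-Cre, and cells were collected 3 weeks later. Bulk RNA-seq covered 4 sorted populations with 3 mice per genotype each, and 10x single-cell RNA-seq covered Lin-;c-Kit+ (LK) cells, a broader progenitor compartment, with 3 mice per genotype. All bulk populations were Lin-;Sca1+;c-Kit+. The HSC were CD150+;CD48- and hold most stem cells, the MPP1 were CD150-;CD48-, the MPP2 CD150+;CD48+ and the MPP4 CD150-;CD48+. Mx1-Cre acts in many cells that respond to interferon, not only in blood cells. Age and sex of the mice are not stated in the labels.

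Most Zfp genes encode proteins with C2H2 fingers, short units in which 2 cysteines and 2 histidines hold a zinc ion and through which a protein can read DNA. Many also carry a KRAB domain, which binds the corepressor Trim28 (KAP1). Trim28 in turn recruits the histone H3 lysine 9 methyltransferase Setdb1, and this system is best known for silencing transposable elements. KRAB genes multiplied in tandem clusters, so that neighbours are often similar in sequence. A few Zfp symbols belong to proteins of other kinds, such as Zfp36 (tristetraprolin), a CCCH finger protein that binds AU-rich elements and speeds the decay of messenger RNAs of the immediate early and inflammatory response.

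In the longest annotated coding sequences, 54 of the 147 members held a KRAB-like stretch, meaning that at least 13 positions matched a KRAB consensus. No gap separated the classes, since the highest score below this cut was 12 and the lowest above it 13. The other members were 88 with C2H2 fingers and no such stretch found, and 5 with neither found, which were Zfp36, Zfp330, Zfp703, Zfp707 and Zfp839. Each sequence was translated from its first annotated coding base without a check for an incomplete start. A member without a match may therefore still encode fingers or a KRAB domain. KRAB-like members had a median of 12 fingers and the other C2H2 members 7.5. Of the 147 members, 71 lay within 500 kb of another member, 40 of them KRAB-like. Chromosome 7 held 36 members and chromosome 17 held 13. The octamer GAGAAACC, part of the linker that joins neighbouring fingers, stood in the coding sequence of 65 members (44.2%) and of 38 of the KRAB-like ones (70.4%), against 543 of 8932 coding genes at the same level or above (6.08%). Reads can be shared between such copies. Of the members, 86 held at least 1 stretch of 50 bases that another gene also holds, and 29 shared over 10% of their length in this way.

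Finger sequences of 2 KRAB-like members show this shared unit, and these 2 are printed because their counts moved with genotype in several populations. Each line is a finger and the linker after it, read from GENCODE vM21 transcripts on GRCm38, with the linker in capitals. The Zfp52 unit is at chr17:21560453-21560530 (+ strand, exon 5 of 5) and the Zfp386 unit at chr12:116059804-116059881 (+ strand, exon 3 of 3). Both stretches are coding sequence.
Zfp52: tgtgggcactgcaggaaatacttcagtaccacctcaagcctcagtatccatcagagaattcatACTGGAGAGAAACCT
Zfp386: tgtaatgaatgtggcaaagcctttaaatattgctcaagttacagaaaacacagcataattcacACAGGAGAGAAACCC
The unit printed for each gene was its first one with GAGAAACC, so the octamer stands in both linkers by choice, while the fingers differ. Of the units of this pattern, 8 of 9 in Zfp52 and 7 of 8 in Zfp386 held it. Zfp52 held 14 fingers, Zfp53 held 16 and Zfp386 held 9. Over aligned coding bases Zfp52 and Zfp53 were 79.5% identical (1836 bases), Zfp52 and Zfp386 62.4%, and Zfp53 and Zfp386 58.2%. The share of 50-base stretches found in another gene was 0.899% for Zfp52 and 0.497% for Zfp53.

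The members were a small part of each library. They took 0.595 to 0.937% of the counts, in libraries of 28896498 to 55276836 counts, and their mean counts had a median of 1199 and reached 27630. Per kilobase of exon, Zfp36 was the highest in WT HSC at 274 ± 177 CPM per kb (counts scaled by library size and divided by exon length, mean ± SD, n = 3). It was followed by Zfp207, a spindle-associated protein, at 91.8 ± 11.1, Zfp869 at 75.8 ± 16.8, Zfp740 at 55.1 ± 11.9 and Zfp706 at 51.6 ± 7.08. The spread of Zfp36 overlapped that of Zfp207, and the levels of Zfp740 and Zfp706 also lay within their spread. Lowest were Zfp236 at 1.71, Zfp568 at 1.63, Zfp398 at 1.61, Zfp316 at 1.60 and Zfp26 at 1.03 CPM per kb.

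Mettl3 itself was at 29.6 to 42.6 CPM in the 12 WT bulk libraries and at 11.6 to 22.4 CPM in the 12 Mettl3KO libraries. Its log2 fold change (Mettl3KO over WT, ± standard error) was -1.36 ± 0.18 in HSC (adjusted p = 1.34e-04, edgeR) and -0.77 in MPP4 (adjusted p = 0.0222), and it fell in all 4 populations. Some other facts of the libraries move with genotype. Summed erythroid markers were lower in Mettl3KO in every population without overlap (625 to 780 against 1056 to 1427 CPM in HSC), and summed B cell markers were higher in MPP1 (165 to 193 against 49.4 to 55.7 CPM) and in MPP4 (2477 to 5451 against 748 to 1336 CPM), and to a lesser extent in MPP2 (335 to 478 against 264 to 319 CPM). Summed T and NK cell markers were lower in Mettl3KO HSC (36.5 to 68.2 against 83.7 to 109 CPM) and MPP2 (145 to 320 against 359 to 385 CPM). Of these 11 genes, however, 1 rose and 1 fell in HSC and likewise in MPP2 (edgeR adjusted p under 0.05). Their median log2 fold change was -0.11 in HSC and -0.68 in MPP2. In HSC the B cell sums overlapped, with Ms4a1 at 0 in all HSC libraries. Replicate 2 of Mettl3KO stood apart in HSC, MPP1 and MPP2, with 5.12 to 5.50% of counts in the ribosomal RNA gene Rn45s against at most 3.61% elsewhere, and its MPP1 library held 77767 CPM of neutrophil markers against at most 12357 in any other. WT replicate 3 had the highest level of the immediate early gene Fos in all 4 populations. The part of these differences in the results below was not tested, except where a value without the libraries is given. In bulk libraries, fewer cells of a type and less RNA per cell cannot be told apart.

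Most members did not pass the test in any single population, and those that passed it mostly rose in Mettl3KO HSC, MPP1 and MPP2. In HSC 7 members rose and 2 fell (edgeR quasi-likelihood test, Benjamini-Hochberg adjusted p under 0.05), against 3.66% of the 15545 genes tested that rose and 2.49% that fell. In MPP1 16 rose and 3 fell (4.74 and 3.89% of all genes), in MPP2 5 rose and 1 fell (1.51 and 0.965%), and in MPP4 none rose and 2 fell (1.03 and 2.1%). The share of members that rose was 4.76% in HSC, near that of all genes, and 10.9% in MPP1, above it. The median log2 fold change of the 147 members was 0.07 in HSC, 0.15 in MPP1, 0.08 in MPP2 and -0.03 in MPP4, beside 0.00, 0.01, -0.02 and -0.01 for all genes. These medians were small and their sign was not stable. The HSC median was -0.04 without Mettl3KO replicate 1, the MPP2 median -0.03 without Mettl3KO replicate 3, and the MPP4 median 0.01 without WT replicate 2 and 0.02 without Mettl3KO replicate 2. In MPP1 it stayed above 0, from 0.02 without Mettl3KO replicate 3 to 0.26 without Mettl3KO replicate 2. In all, 124 members were called in no population, 15 in 1, 4 in 2, 3 in 3 and 1 in all 4. Calls over several populations were not counted for all genes, so these numbers describe the members only. Several counts moved when a library was left out. In HSC 4 members were called without Mettl3KO replicate 2 and 5 without Mettl3KO replicate 3, and up to 10 without another library. In MPP1 9 were called without WT replicate 1, 7 without WT replicate 2 or WT replicate 3 and 10 without Mettl3KO replicate 3, but 21 without Mettl3KO replicate 2, the one rich in neutrophil markers. In MPP2 0 to 2 were called without any 1 library, and in MPP4 0 or 1 without any 1 library other than WT replicate 1. The calls that held without each single library of their population were Zfp52, Zfp513 and Zfp639 in HSC and Zfp53, Zfp386 and Zfp513 in MPP1. All 19 calls of MPP1 rest on the spread shared by the 8 groups, since a fit of the MPP1 groups alone called 0 members, with edgeR adjusted p of 0.124 for Zfp386, 0.129 for Zfp513 and 0.181 for Zfp53.

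Called members were found among both the KRAB-like and the other members. In HSC 2 KRAB-like members rose and 2 fell, beside 5 and 0 of the other 93, and in MPP1 the numbers were 6 and 2 beside 10 and 1. The median log2 fold change of the KRAB-like members was -0.15 in HSC and -0.15 in MPP1, while that of the others was 0.12 and 0.20. In MPP2 the KRAB-like and other medians were 0.02 and 0.12, in MPP4 -0.001 and -0.03, and in LK cells 0.06 and 0.06. The differences between these medians were not tested. The HSC median of the KRAB-like members was 0.04 without HSC Mettl3KO replicate 2 or without all 3 libraries highest in Rn45s, and 0.00 without HSC WT replicate 2. Their MPP1 median stayed below 0 without any 1 MPP1 library, but was -0.02 without MPP1 WT replicate 1. With offsets for exon length and GC content it was -0.04.

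Zfp52 and its neighbour Zfp53 had the largest rises among the members called in HSC. Both are KRAB-like genes on the + strand of chromosome 17, Zfp53 at chr17:21488998-21510473 and Zfp52 at chr17:21535539-21562601, and no other tested gene lies in the 73.6 kb they span together. Zfp52 was at 12.5, 11.8 and 13 CPM in WT HSC (replicates 1, 2 and 3) and at 38.8, 30 and 36 CPM in Mettl3KO HSC. All Mettl3KO libraries were above all WT libraries, with a log2 fold change of 1.49 ± 0.22 (adjusted p = 3.21e-04, edgeR).

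Zfp52 also rose in MPP1, from 20.8, 14.5 and 15 to 34, 23.6 and 34.4 CPM (log2 0.87 ± 0.22, edgeR adjusted p = 0.0185). In MPP2 it rose from 14, 11.8 and 14.5 to 22.7, 26.1 and 24.9 CPM (log2 0.87 ± 0.22, edgeR adjusted p = 0.0382). Neither population had overlapping libraries, but the MPP1 call was lost without WT replicate 2, WT replicate 3 or Mettl3KO replicate 3 and the MPP2 call without any 1 library. In MPP4 the groups overlapped at 17.3, 20.3 and 11.9 CPM in WT against 16.2, 17.4 and 14 CPM in Mettl3KO, a log2 difference of -0.05 that was not called. The genotype effect in MPP4 was lower than that in HSC by an interaction term of -1.55 ± 0.31 (edgeR adjusted p = 0.0146). That call was lost without MPP4 WT replicate 2 and without MPP4 Mettl3KO replicate 3, where the adjusted p was at most 0.0606, and without the 4 WT replicate 3 libraries (adjusted p = 0.0564). An exon of Zfp52 overlaps the antisense gene 9330136K24Rik, and no source at hand says whether the counting used strand.

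Zfp53 rose in HSC from 11.1, 11.5 and 7.66 to 28, 24.3 and 25.4 CPM (log2 1.36 ± 0.30, edgeR adjusted p = 0.00889), without overlap, and the call was lost without HSC WT replicate 3 (adjusted p = 0.0537). In MPP1 it rose from 10.1, 16.1 and 9.93 to 30.8, 21.1 and 51.1 CPM (log2 1.51 ± 0.30, edgeR adjusted p = 0.00479), again without overlap. Its log2 difference was 0.69 in MPP2 and 0.17 in MPP4, and neither was called. The MPP4 libraries overlapped, with 13.4 to 23.8 CPM in WT against 16.9 to 24.7 CPM in Mettl3KO.

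The 250 bases before the start sites of these neighbours are shown because the genes moved together, with the bases of searched motifs in capitals (RefSeq, GRCm38.p6). They are chr17:21535289-21535538 (+) for Zfp52 and chr17:21488738-21488987 (+) for Zfp53.
Zfp52: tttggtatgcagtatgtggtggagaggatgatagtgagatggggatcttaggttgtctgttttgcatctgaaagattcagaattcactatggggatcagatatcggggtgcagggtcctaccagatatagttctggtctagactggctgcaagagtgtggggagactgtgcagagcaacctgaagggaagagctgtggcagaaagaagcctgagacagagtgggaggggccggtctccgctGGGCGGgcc
Zfp53: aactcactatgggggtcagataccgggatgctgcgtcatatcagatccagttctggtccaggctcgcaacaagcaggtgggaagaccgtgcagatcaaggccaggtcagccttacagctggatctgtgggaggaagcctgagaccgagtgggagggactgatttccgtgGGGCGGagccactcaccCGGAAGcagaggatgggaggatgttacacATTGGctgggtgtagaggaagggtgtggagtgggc
The motifs searched on both strands were the GC box (GGGCGG), the CCAAT box, the E-box (CACGTG), an ETS core (CGGAAG) and the AP-1 motif (TGACTCA), and the GC box and the ETS core can share 3 bases. With the base before the start site as -1 and a motif placed by its leftmost base, the GC box stands at -9 in Zfp52 and at -81 in Zfp53. The Zfp53 stretch also holds the ETS core at -64 and the CCAAT box, on the reverse strand, at -35. The GC box was found in the 250 bases of 64 of 117 members with an entry (54.7%) and in 32.9% of 27025 promoters, and the ETS core in 36 members (30.8%) and 13.8% of promoters. The CCAAT box was found in 42.7% of members and 34.5% of promoters, the E-box in 5.98 and 6.05%, and the AP-1 motif in 5.13 and 4.43%. The GC box was present in 16 of 24 members that rose over the populations and in 6 of 11 that fell.

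Zfp639, Zfp513, Zfp451 and Zfp771 are C2H2 genes without a KRAB-like stretch that rose in 2 or 3 populations. Zfp639 was at 30.1, 26 and 35.6 CPM in WT HSC and at 61.6, 57 and 77.8 CPM in Mettl3KO HSC (log2 1.10 ± 0.17, edgeR adjusted p = 5.93e-04). It also rose in MPP1 (log2 0.63) and in MPP2 (log2 0.69), and in MPP4 its Mettl3KO libraries (41 to 48.9 CPM) stood above the WT ones (35 to 39.7 CPM) without a call. Zfp513, whose human counterpart is mutated in a form of retinitis pigmentosa, rose in HSC from 36.8, 28.7 and 34.2 to 61.2, 62 and 66.1 CPM (log2 0.93) and in MPP1 from 37.6, 41.8 and 39.1 to 90.9, 110 and 65 CPM (log2 1.17). These HSC and MPP1 groups did not overlap. The MPP2 call of Zfp639 was lost without any 1 library, and its MPP1 call without WT replicate 1, WT replicate 2 or Mettl3KO replicate 2. Zfp639 shares an exon region with Gm37592 and Zfp513 with Snx17.

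Zfp451, a SUMO ligase, rose in MPP2 from 34.9, 42 and 33.1 to 72.8, 75.1 and 89 CPM (log2 1.11 ± 0.23, edgeR adjusted p = 0.0134) and in MPP1 by a log2 fold change of 0.85. Zfp771 rose in HSC from 52.2, 35 and 49.8 to 62.1, 92 and 91.3 CPM (log2 0.84, edgeR adjusted p = 0.0247) and in MPP2 from 54.3, 57.4 and 44.8 to 103, 94.2 and 81.3 CPM (log2 0.83, edgeR adjusted p = 0.0464). In each of these comparisons every Mettl3KO library was above every WT library. The Zfp451 calls were lost without 3 of 6 libraries in each population, and those of Zfp771 without 3 of 6 in HSC and 6 of 6 in MPP2. Zfp637 was called in HSC alone (log2 0.90). In MPP1 the other rises were Zfp282 (log2 1.48), Zfp202 (1.42), Zfp609 (1.26), Zfp296 (1.19), Zfp212 (1.06), Zfp646 (1.05), Zfp445 (1.04), Zfp106 (0.89), Zfp598 (0.73) and Zfp710 (0.71). Zfp445 takes part in the protection of genomic imprints, and Zfp598 is a ubiquitin ligase that marks stalled ribosomes. The rise of Zfp282 was uneven, from 13.8, 25.1 and 23.4 to 58, 28.1 and 88 CPM.

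Zfp386, a KRAB-like gene at chr12:116047724-116063360, was the member that fell in 3 populations. It was at 110, 103 and 107 CPM in WT HSC and at 63.9, 67.9 and 58.5 CPM in Mettl3KO HSC (log2 -0.75 ± 0.20, edgeR adjusted p = 0.0269). In MPP1 it fell from 181, 148 and 127 to 85, 62.5 and 58.6 CPM (log2 -1.14 ± 0.20, edgeR adjusted p = 0.00176), and in MPP2 from 104, 106 and 93.5 to 56.2, 45.3 and 73.7 CPM (log2 -0.79 ± 0.20, edgeR adjusted p = 0.0374). The groups did not overlap in these populations, and the MPP1 call held without each single library, while the HSC call was lost without any 1 and the MPP2 call without any 1 except Mettl3KO replicate 3. In MPP4 the values were 102, 103 and 81.5 CPM in WT against 103, 101 and 153 CPM in Mettl3KO, which overlap, with an uncalled log2 difference of 0.32. Zfp87 also fell in HSC (log2 -0.89, adjusted p = 0.035, edgeR), and Zfp945 (log2 -1.01) and Zfp277 (log2 -0.71) fell in MPP1.

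Zfp467, described in the choice between bone-forming and fat cell fates, was called in all 4 populations, upward in 3 and downward in MPP4. It lies on the - strand at chr6:48427697-48445825 and encodes 13 fingers. In HSC it rose from 119, 166 and 131 to 230, 228 and 253 CPM (log2 0.77 ± 0.22, edgeR adjusted p = 0.0424), and in MPP1 from 151, 155 and 149 to 322, 260 and 266 CPM (log2 0.90 ± 0.22, edgeR adjusted p = 0.0174). In MPP2 it rose from 51.1, 80.5 and 58 to 136, 106 and 136 CPM (log2 1.00 ± 0.22, edgeR adjusted p = 0.0204). In MPP4 it fell from 54.6, 57 and 83.8 to 50.5, 30.4 and 27.1 CPM (log2 -0.86 ± 0.22, edgeR adjusted p = 0.0402). Every Mettl3KO library was above every WT library in the first 3 populations and below in MPP4. The single calls were lost in 5 of 6 fits that leave out 1 library in HSC, in 3 of 6 in MPP1 (each WT replicate), in 4 of 6 in MPP2 and in 4 of 6 in MPP4. The effect in MPP4 differed from that in HSC by -1.63 ± 0.32 on the log2 scale (edgeR adjusted p = 0.0127), a call that held without each single library (highest adjusted p = 0.0489) and was lost without the 4 WT replicate 3 libraries (adjusted p = 0.138).

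The genes outside the family whose log2 CPM followed Zfp467 most closely over the 24 libraries were Cuedc1 (Pearson r = 0.962), Nfe2, a transcription factor of the megakaryocyte and erythroid lineages (r = 0.945), and Igf1r (r = 0.938). Among members, Zfp532 (r = 0.889) and Zfp202 (r = 0.87) were nearest. These libraries share populations and genotypes, so the values are a description. Beside the MPP4 fall stand lower summed megakaryocyte markers in MPP4 Mettl3KO, at 99.5 to 138 CPM against 278 to 412 CPM in WT. Their sum was also lower in HSC, at 921 to 1076 against 1651 to 2523 CPM, where Zfp467 rose. Of these 10 genes, 1 rose and 1 fell in HSC (median log2 -0.05), and none rose and 2 fell in MPP4 (median -0.82). Summed HSC markers were lower in MPP4 Mettl3KO as well, at 186 to 237 against 404 to 518 CPM, and overlapped between genotypes in HSC, MPP1 and MPP2. The part of these markers in the result was not tested.

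**Figure D1:**
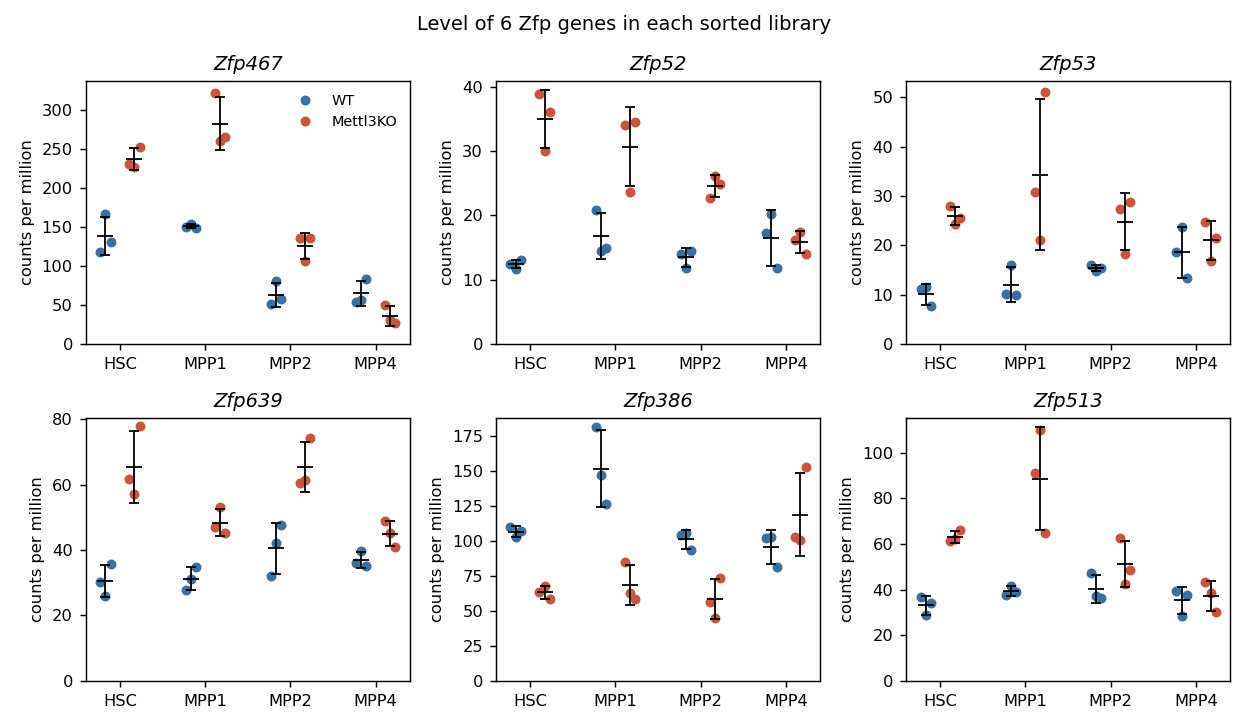
CPM of 6 Zfp genes in each bulk library (vertical axes, each from 0) by population, with WT in blue and Mettl3KO in red, 3 mice per group, and bars for the mean ± SD. Zfp467 is higher in Mettl3KO in HSC, MPP1 and MPP2 and lower in MPP4, while Zfp52, Zfp53 and Zfp386 overlap between genotypes in MPP4.

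Zfp36, the tristetraprolin gene at chr7:28376784-28380253 (- strand), was the other member called in MPP4. It was at 274, 583 and 1425 CPM in WT MPP4 and at 127, 129 and 203 CPM in Mettl3KO MPP4 (log2 -2.31 ± 0.61, edgeR adjusted p = 0.0430). All Mettl3KO libraries were lower, but the WT values ranged widely and the call was lost in 5 of the 6 fits that leave out 1 MPP4 library. In HSC the values were 374, 882 and 1598 CPM against 216, 248 and 300 CPM (log2 -1.90 ± 0.61, edgeR adjusted p = 0.0682), without overlap and without a call. In MPP1 and MPP2 the log2 differences were -1.45 and -2.04, also uncalled.

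In WT, the spread of Zfp36 followed the same replicate numbers as that of other immediate early genes. WT replicate 3 was the highest and WT replicate 1 the lowest WT library in all 4 populations for Zfp36 and also for Fos, Jun, Junb, Egr1, Ier2 and Dusp1, which were chosen after their values were seen. The order differed in part in Mettl3KO. There Zfp36 was highest in replicate 3 in all 4 populations. Jun, Junb and Egr1 were highest in replicate 2 in all 4, Fos and Ier2 in 3 and Dusp1 in 2. Mettl3KO replicate 1 was the lowest in 3 populations for Zfp36 and Ier2 and in 4 for the other genes. Fos was at 279, 1352 and 3200 CPM in WT HSC and at 174, 699 and 408 CPM in Mettl3KO HSC. Averaged over populations, Zfp36 fell by 1.93 on the log2 scale (standard error 0.30, edgeR adjusted p = 1.15e-04), Fos by 2.27, Egr1 by 2.73, Dusp1 by 2.12, Ier2 by 1.66, Jun by 1.28 and Junb by 1.22. Without the 4 WT replicate 3 libraries, Zfp36 was still lower over the populations, at -1.24 (edgeR adjusted p = 0.00157), and uncalled in MPP4 at -1.47 (edgeR adjusted p = 0.196). With counts summed over populations for each replicate number, its value was -1.84 with an adjusted p of 0.0643. In LK cells Zfp36 was at 12.6, 19 and 36.7 CPM in WT against 22.3, 18.6 and 20.8 CPM in Mettl3KO (log2 -0.13, edgeR adjusted p = 0.809).

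**Figure D2:**
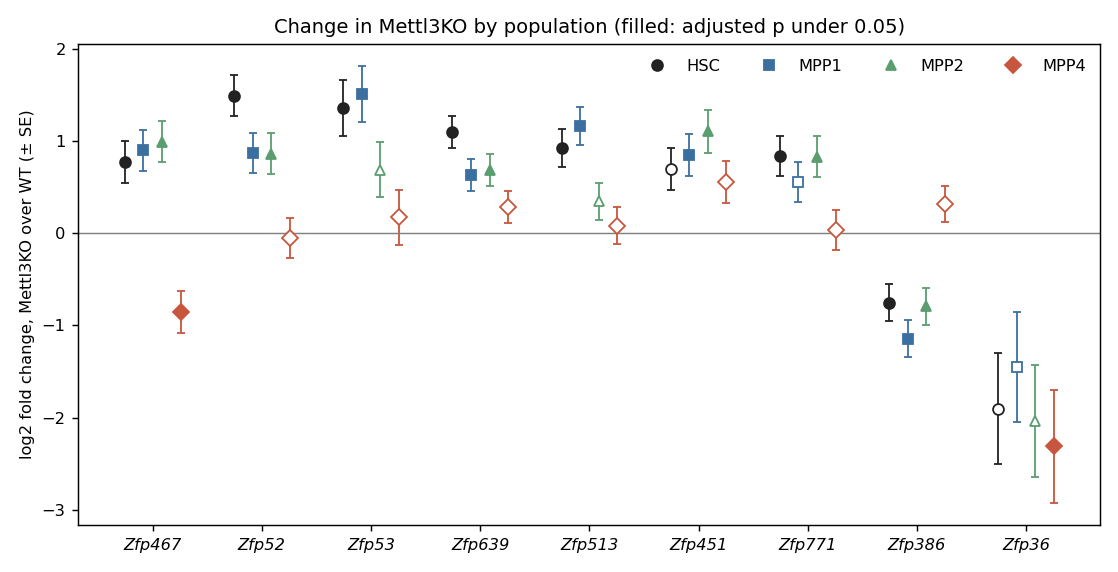
Log2 fold change of Mettl3KO over WT (± standard error) of 9 Zfp genes in each bulk population, with filled symbols for calls. The first 7 genes lie above 0 in HSC, MPP1 and MPP2, Zfp386 lies below 0 there and above in MPP4, and Zfp36 lies below 0 in all 4 populations.

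**Figure D3:**
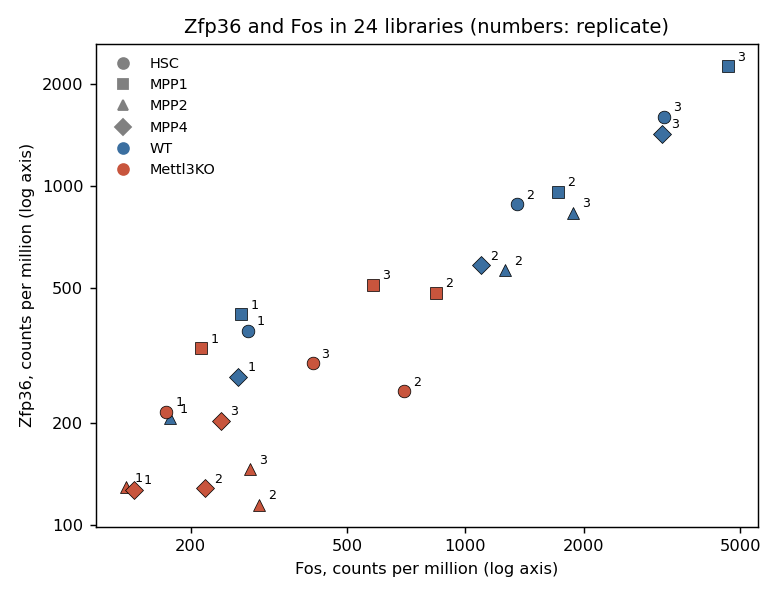
Level of Zfp36 (vertical axis) against that of Fos (horizontal axis) in the 24 bulk libraries, both as CPM on log axes, with symbols for populations, colours for genotypes and numbers for replicates. In each population WT replicate 3 is the highest WT library for both genes and WT replicate 1 the lowest.

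When the genotype effect was averaged over the 4 populations, 26 members rose and 14 fell, which is 17.7 and 9.52% of the members beside 11.4% of all genes that rose and 11.9% that fell. The members' median was 0.03 and that of all genes 0.00. With upper-quartile scaling it was -0.02, so that the family as a whole showed no direction that held under each scaling. Among the 26 that rose were 8 KRAB-like members, and among the 14 that fell were 6. The highest were Zfp53 (log2 0.93 ± 0.15), Zfp451 (0.80 ± 0.12), Zfp52 (0.79 ± 0.11), Zfp282 (0.75 ± 0.16), Zfp639 (0.68 ± 0.09), Zfp606 (0.66 ± 0.21), Zfp646 (0.65 ± 0.14) and Zfp513 (0.63 ± 0.10). The lowest were Zfp36, Zfp239 (-1.19 ± 0.33), Zfp87 (-0.60 ± 0.12), Zfp386 (-0.59 ± 0.10), Zfp945 (-0.55 ± 0.14), Zfp395 (-0.53 ± 0.11) and Zfp608 (-0.47 ± 0.10).

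Of the 26 that rose on average, 16 had a positive value in all 4 populations and 10 had a negative value in MPP4. Of the 14 that fell, 12 were negative in all 4. Signs over the populations were not counted for all genes. The labels do not tell whether the same mice were sorted for several populations, and if they were, p-values of the averaged effect are too small. WT libraries of the same number deviated together across populations, with a positive correlation in 18 of 18 pairs (0.052 to 0.253) against 3 of 36 pairs of different numbers, and Mettl3KO libraries did so in 16 of 18 pairs (-0.0896 to 0.231). With counts summed over the populations for each replicate number, which leaves 3 against 3, 15 members were called (13 up and 2 down), and 14 of these were among the 40. They included Zfp52 (log2 0.86), Zfp53 (0.92), Zfp639 (0.65), Zfp467 (0.65), Zfp386 (-0.53) and Zfp239 (-1.17).

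Direct comparison of the genotype effect between populations called Zfp467 and Zfp52, both lower in MPP4 than in HSC, beside 0.611% of all genes that were higher and 0.939% that were lower. The count was 1 without MPP4 WT replicate 2 or MPP4 Mettl3KO replicate 3, 8 without HSC Mettl3KO replicate 1 and 4 without MPP4 Mettl3KO replicate 1. Between MPP1 and HSC edgeR called 0 members (0.0386% of all genes), while 9 had an unadjusted p under 0.05, and DESeq2 also called 0. Between MPP2 and HSC it called 0 members (0.00643% of all genes), while 1 had an unadjusted p under 0.05, and DESeq2 called 0. A rise in HSC and none in MPP2 is therefore not shown to differ for any member.

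Neighbouring members did not always move together. A stretch of chromosome 6, at chr6:47835661-48445825 and chosen after its values were seen, held 7 members, of which 5 rose in the averaged effect and none fell. These were Zfp282 (log2 0.75), Zfp777 (0.54), Zfp746 (0.52), Zfp212 (0.51) and Zfp467 (0.45), beside uncalled values of 0.23 for Zfp398 and -0.40 for Zfp956. Between them lies Zfp783, a Zfp gene below the level rule, which fell by 1.62 on the log2 scale (edgeR adjusted p = 2.58e-06). Its libraries held 8.87 to 26.7 CPM in WT against 2.44 to 12.7 CPM in Mettl3KO. Krba1, a further gene of the stretch, was at -0.46 and not called.

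**Figure D4:**
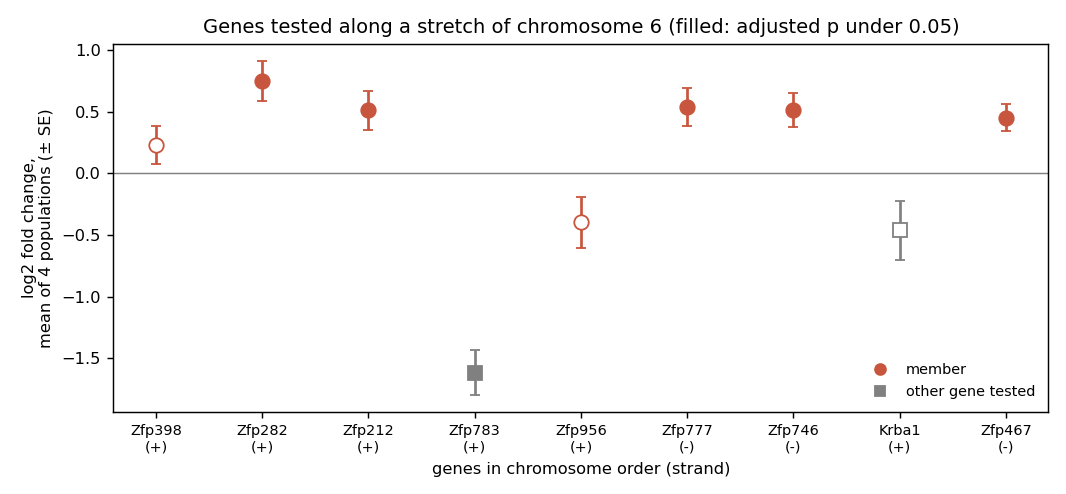
Log2 fold change averaged over 4 populations (± standard error) of the tested genes of a chromosome 6 stretch, in chromosome order with their strand. Circles are members, squares other genes and filled symbols calls. Of the 7 members 5 rose, while Zfp783 among them is at -1.62.

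Members with a described role were taken as a list of their own, of which 30 of 38 reached the level rule. Of the whole list 37 genes were tested, and 7 rose and 4 fell in the averaged effect, beside 11.4 and 11.9% of all genes. All 7 that rose were members, while Zfp36 was the only member among the 4 that fell. The rises were Zfp106, an RNA-binding protein of motor neurons (log2 0.61), Zfp598 (0.45), Zfp292 (0.44), Zfp830, a splicing-related protein (0.36), Zfp131, a BTB zinc finger protein (0.33), Zfp710 (0.30) and Zfp91, a ubiquitin ligase (0.29). Zfp106, Zfp445, Zfp598 and Zfp710 were also called in MPP1. Related zinc finger genes under other symbols were counted in the same fit. Of 19 Zbtb genes 1 rose in the averaged effect and none fell, and of 10 Zkscan and Zscan genes 3 rose and none fell, beside the same 11.4 and 11.9% of all genes.

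The machinery through which KRAB proteins act was tested as a list of 31 measured genes. In the averaged effect 6 rose and 2 fell, beside 11.4 and 11.9% of all genes. In HSC 2 rose, in MPP1 2 rose and 1 fell, and in MPP2 and MPP4 1 rose each. Setdb1 was at 67.5, 97.9 and 74.1 CPM in WT HSC and at 201, 197 and 126 CPM in Mettl3KO HSC (log2 1.13 ± 0.21, edgeR adjusted p = 0.00247), without overlap. It also rose in MPP1 (log2 1.27) and in MPP2 from 83.7, 85.2 and 72.5 to 124, 175 and 185 CPM (log2 1.00, edgeR adjusted p = 0.0134). In MPP4 its libraries stood at 63.4, 76.2 and 84.6 CPM in WT against 101, 98.8 and 94.1 CPM in Mettl3KO, a log2 difference of 0.39 that was not called (edgeR adjusted p = 0.372). In LK cells its value was -0.05.

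Trim28, the partner of KRAB domains, had an averaged log2 difference of -0.10 (edgeR adjusted p = 0.338). The other rises in the averaged effect were Chd3 (log2 0.50), Daxx, a histone H3.3 chaperone (0.49), Uhrf1 (0.32), Cbx5, a heterochromatin protein (0.29), and Smarcad1 (0.25), and Hdac1 fell (-0.24). In single populations Daxx rose in HSC (0.70), Smarcad1 in MPP1 (0.54) and Uhrf1 in MPP4 (0.89).

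In LK cells 13 members rose and 2 fell among 145 tested, beside 13.7% of 13071 genes that rose and 8.72% that fell, so the share that rose was below that of all genes. UMI counts were summed per library over 24396 of 24693 cells, with median UMIs per cell of 5945 to 10490 and 76 to 116 barcodes shared with another library. Zfp467 was at 3.64, 3.62 and 3.42 CPM in WT and at 20.9, 9.95 and 16.3 CPM in Mettl3KO (log2 2.14 ± 0.25, edgeR adjusted p = 0.00134). Zfp579 rose from 5.59, 6.15 and 5.52 to 15.6, 11.3 and 16.3 CPM (log2 1.33 ± 0.15, edgeR adjusted p = 0.00119). Neither gene had overlapping groups.

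Zfp532, which with Zfp687 belongs to a chromatin complex, rose in LK cells from 0.206, 0.327 and 0.279 to 1.29, 0.972 and 0.718 CPM (log2 1.87). The other rises were Zfp428 (0.87), Zfp296 (0.83), Zfp580 (0.66), Zfp53 (0.40), Zfp593 (0.36), Zfp664 (0.36), Zfp771 (0.32), Zfp326 (0.32), Zfp444 (0.28) and Zfp148 (0.24), and Zfp2 (-0.64) and Zfp800 (-0.38) fell. Among the 26 members that rose in the averaged bulk effect 5 also rose in LK cells, and none fell. The matching share of all genes was not counted. Zfp52 overlapped between genotypes there, at 1.11 to 1.68 CPM in WT against 1.16 to 2.16 CPM in Mettl3KO. The make-up of the LK libraries differed as well. Summed HSC markers were at 95.6 to 117 CPM in WT against 144 to 221 CPM in Mettl3KO, B cell markers at 306 to 605 against 1491 to 2691 CPM and erythroid markers at 3494 to 4741 against 1306 to 2188 CPM. Neutrophil markers were lower in Mettl3KO, at 10766 to 15159 against 18133 to 104047 CPM. The sum of T and NK cell markers was also lower, at 423 to 554 against 652 to 784 CPM. Of 10 such genes tested, however, 2 rose and 1 fell, with a median log2 fold change of 0.32. The part of these shifts in the LK values was not tested. The LK count was 7 without Mettl3KO replicate 3 and 9 without Mettl3KO replicate 1 or WT replicate 1, and the calls of Zfp467, Zfp532 and Zfp579 held without each single library.

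Among WT populations the members were highest in HSC more often than in any single MPP population. Of the 147, 68 had their highest WT mean in HSC, 44 in MPP1, 15 in MPP2 and 20 in MPP4, and 71 had their lowest in MPP4. These ranks of means take no account of the spread between mice, and they were not counted for all genes. Against MPP4 8 members were higher in HSC and 1 was lower (5.4 and 6.65% of all genes), so the share higher in HSC, 5.44%, was that of all genes. Against MPP2 2 were higher and 1 lower (1.4 and 2.51%). Against MPP1 edgeR called 0 (0.0257% of all genes in either direction), while 9 had an unadjusted p under 0.05, and DESeq2 called 0 as well. The median log2 difference between HSC and MPP4 was 0.35 for the members and 0.04 for all genes, with 109 members (74.2%) above 0 against 51.8% of all genes. With offsets for exon length and GC content it was 0.21, with 0.38 for the KRAB-like and 0.08 for the other members. Against MPP2 the members' median was 0.23, and 0.16 with those offsets. Both medians leaned on HSC WT replicate 2, without which they were 0.21 against MPP4 and 0.13 against MPP2.

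Zfp467 was higher in HSC in both contrasts and had the lowest p-value among the members in each, with log2 differences of 1.09 from MPP4 (edgeR adjusted p = 0.00391) and 1.13 from MPP2 (edgeR adjusted p = 0.00724). Zfp521, a partner of EBF1 that restrains B cell development, was at 21.7, 31.2 and 15.3 CPM in WT HSC and at 4.05, 9.68 and 8.72 CPM in WT MPP4 (log2 1.60), without overlap. The others higher in HSC than in MPP4 were Zfp532 (log2 1.77), Zfp275 (1.48), Zfp202 (1.16), Zfp512 (1.06), Zfp451 (1.01) and Zfp687 (0.96). Zfp706 was lower, at 292, 222 and 257 CPM in HSC and 400, 352 and 343 CPM in MPP4 (log2 -0.51). Without MPP4 WT replicate 1 or HSC WT replicate 2 only Zfp467 remained called against MPP4, and without MPP4 WT replicate 3 the count was 5. Against MPP2 the count was 1 without any 1 HSC library and 0 without MPP2 WT replicate 1. Zfp292 was higher in HSC than in MPP2 (log2 0.78). Zfp703 was lower, at 7.54, 14.7 and 12.2 CPM in HSC and 50.9, 24 and 20.4 CPM in MPP2 (log2 -1.47). MPP2 WT replicate 1, the highest of these, also held 9922 CPM of macrophage markers, and without it the log2 difference was -0.96 (edgeR adjusted p = 0.192).

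**Figure D5:**
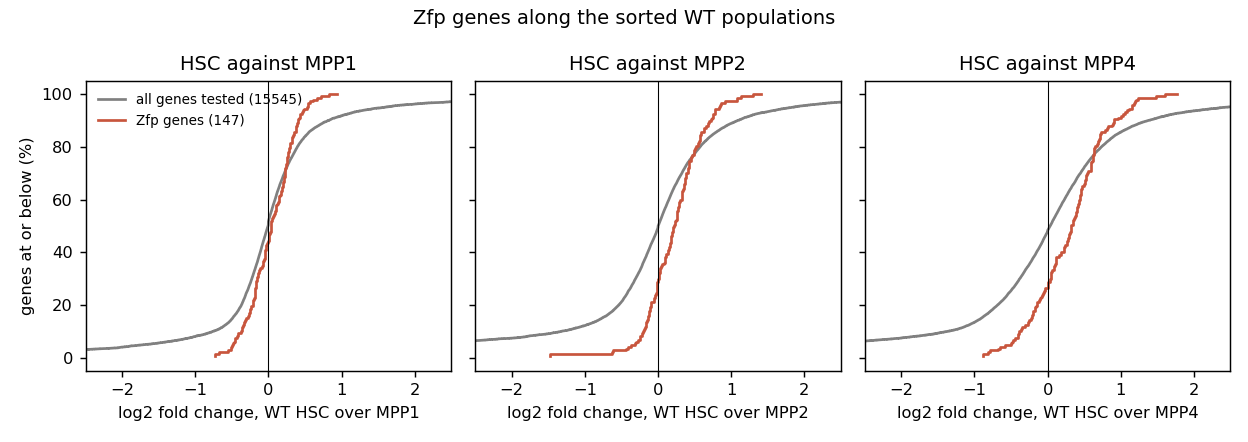
Cumulative share of genes (vertical axis, %) at or below a log2 fold change of WT HSC over WT MPP1, MPP2 or MPP4 (horizontal axis), for the 147 Zfp genes in red and all 15545 genes tested in grey. Against MPP2 and MPP4 the Zfp curve is below the grey curve at 0, with medians of 0.23 and 0.35.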

How the data were processed

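Bulk libraries were made from polyA RNA by SMARTer amplification, and replicates are 3 different mice, per the labels. Bowtie, TopHat, Cell Ranger 2.2, mm10 and GRCh37 stand in the submitters' processing notes. The counting tool, its annotation and its use of strand were not given in the sources used here. The deposited bulk table, although named for FPKM, holds whole-number counts per gene, which the authors had not normalized. The deposited 10x table holds UMI counts per cell. A limma fit on log2 FPKM was planned, but edgeR 4.0.16 (R 4.3.3) was used because the values were counts. Genes were kept by filterByExpr, scaled by TMM and tested by quasi-likelihood over 8 bulk groups (16 residual degrees of freedom), and calls are Benjamini-Hochberg adjusted p under 0.05 over all genes tested. Cells over 10% mitochondrial UMIs were removed, and the rest summed per library (4 residual degrees of freedom). An exact permutation test of 3 against 3 cannot go below p = 0.1. The test was checked on simulated counts.

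The members and lists were chosen with earlier results of these data known. Named members are, per genotype contrast, up to 12 called in each direction by log2 fold change, those called alike in at least 2 populations or in an interaction, up to 6 each way per WT contrast, the 5 highest and 5 lowest per kb, those at the level threshold, those with a described role, called corepressor genes, Mettl3, and the 3 genes most like the member called in most populations (log2 CPM with a pseudocount of 0.05). Zfp191 was matched to the annotation as Zfp24 and not found in the 10x table by its symbol, and 145 of the other 146 passed the filter there. Motif and linker searches used RefSeq promoters and GENCODE vM21 transcripts. DESeq2 1.42.0, other scalings, no filter, length and GC offsets, a replicate block and leaving out libraries were tried as alternatives. A few results on single items are not reported here.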

Additional observations from a re-analysis of the deposited data

Results flagged for a closer look

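The effect of genotype differed between MPP4 and HSC for Zfp467 and Zfp52 by an interaction term. For Zfp467 the log2 fold change (Mettl3KO over WT) in MPP4 minus that in HSC was -1.63 (standard error 0.32, edgeR adjusted p = 0.0127), with all 3 Mettl3KO libraries above WT in HSC and below WT in MPP4. For Zfp52 the difference was -1.55 (standard error 0.31, edgeR adjusted p = 0.0146), with 3 of 3 Mettl3KO libraries above WT in HSC and overlapping groups in MPP4. Without the 4 WT replicate 3 libraries, which were highest in Fos, the differences were -1.37 (adjusted p = 0.138) and -1.77 (adjusted p = 0.0564).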

How the results depend on the processing

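None of 2351 values of single called members under an alternative reversed a called direction. Such members had already passed the test on the same or mostly the same libraries, so a reversal was unlikely from the outset. The counts of called members did move. The cause of these moves was not tested, apart from fewer libraries where some were left out. DESeq2 called 15 members in HSC, 11 in MPP2, 5 in MPP4, 8 for MPP4 against HSC effects, 8 for WT HSC against MPP2 and 16 for WT HSC against MPP4. Fits of only the groups compared called 5 in HSC, 0 in MPP1, 1 for MPP4 against HSC effects and 21 for WT HSC against MPP4. Without a filter on low counts 3 were called in MPP2 and 1 in MPP4, with upper-quartile scaling 6 for WT HSC against MPP2, and with length and GC offsets 4 in MPP4. The alternatives that follow and the block within genotype were chosen after seeing the data. Without the 3 libraries highest in Rn45s, 4 were called in MPP4, 6 for WT HSC against MPP2 and 16 for WT HSC against MPP4. Without the 4 libraries highest in Fos (WT replicate 3), 4 were called in HSC, 6 in MPP1, 0 in MPP2, 0 in MPP4, 23 in the averaged effect, 0 for MPP4 against HSC effects, 0 for WT HSC against MPP2 and 4 for WT HSC against MPP4. Populations summed per replicate number gave 15 in the averaged effect.

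Same-numbered WT and Mettl3KO libraries had correlations of their deviations from -0.142 to 0.054 in bulk and -0.298 to -0.066 in LK. For WT and Mettl3KO libraries of different numbers they ran from -0.179 to 0.208 in bulk and -0.0604 to 0.244 in LK. With 3 libraries per group, these values cannot exclude that the numbers pair WT with Mettl3KO libraries. With the replicate block 1 member was called in MPP4, 4 with the block plus length and GC offsets, and 8 in LK. The block kept 39 of 40 calls of the averaged effect, 8 of 9 in HSC, 19 of 19 in MPP1 and 5 of 6 in MPP2. Within a genotype same-numbered libraries tended to deviate together, all 18 WT pairs being positive, though some lay under 0.1. With a replicate block within genotype, 4 members were called for WT HSC against MPP2, 13 for WT HSC against MPP4 and 2 for MPP4 against HSC effects, and every call of these contrasts was kept.

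Leaving out 1 library at a time gave 4 to 10 called members in HSC, 7 to 21 in MPP1, 0 to 2 in MPP2, 0 to 2 in MPP4, 31 to 42 in the averaged effect, 1 to 8 for MPP4 against HSC effects, 0 to 4 for WT HSC against MPP2, 1 to 8 for WT HSC against MPP4 and 7 to 14 in LK. Calls held in every such fit for 3 of 9 members in HSC (Zfp52, Zfp513, Zfp639), 3 of 19 in MPP1 (Zfp53, Zfp386, Zfp513), 0 of 6 in MPP2, 29 of 40 in the averaged effect and 7 of 15 in LK. Members near the lowest levels in LK, from 4 UMIs over all libraries, could show only large differences.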
